A study of Arabidopsis thaliana with 3 samples.

Results

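The plant cell wall families described here cover 67 genes, measured by 69 features of an array of 28785 features. The members were chosen by name: genes whose RefSeq symbol begins with TBL, EXPA, EXPB, EXLA, XTH, CESA, CSLA, CSLC, CSLD, CSLE, CSLG, GAUT, FLA, PME or IRX followed by a number, together with TBR, which RefSeq lists under its locus AT5G06700. The array table named 16918 genes in all, and the RefSeq table holds 185 genes with such names. By family, the members were 26 TBL genes with TBR counted among them, 13 EXPA, 5 EXPB, 3 EXLA, 9 XTH, 2 CSLA, 4 CSLC, 1 CSLD, 1 GAUT, 1 PME and 2 IRX genes. No feature was matched to a CESA, CSLE, CSLG or FLA symbol, so those families were not analysed here. Of the 67 genes, 40 passed a filter on dim features and were tested, and 27 lay under it and are given as values.

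Total RNA of rosette leaves from Arabidopsis thaliana, accession Col-0, aged 2 weeks, was hybridised to 3 arrays. The transgenic plants, numbered 41 and 45 and called line 41 and line 45 here, expressed AtMYB23SRDX under the 35S promoter, with 1 array each, and wild-type plants were represented by 1 array. The labels do not say whether these numbers mark independent transformants or single plants, and MYB23 itself was not matched to a feature, so the transgene was not analysed here. The 35S promoter is known to be active in most plant tissues, and where the repressor was expressed in these plants was not measured. MYB23 is a MYB transcription factor of trichome development, and the SRDX peptide fused to it is a repression motif, so that the fusion represses what MYB23 would normally control. The labels do not say whether the samples came from separately grown plants or pools. The spread behind the p-values came from differences between the 2 transgenic arrays, which may be technical. For each gene the fit combined its own difference with the spread over all tested features. The shared spread weighed more, with 6.76 prior against 1 residual degrees of freedom. Wild type was assumed to vary to the same degree.

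The plant wall is a network of cellulose, the hemicelluloses xyloglucan, xylan and mannan, and pectins, and many of these polymers carry acetyl groups. The TBL (TRICHOME BIREFRINGENCE-LIKE) proteins sit in the Golgi, and those studied mostly transfer acetyl groups to hemicelluloses. The family takes its name from TBR, whose loss removes the birefringence that crystalline cellulose gives to trichome walls. Alpha- and beta-expansins (EXPA and EXPB) loosen the contacts between polymers, and the expansin-like EXLA genes are counted with the expansins here. XTH enzymes cut and rejoin xyloglucan, CSL proteins build polysaccharide backbones, and GAUT proteins belong to the pectin-making galacturonosyltransferases. PME enzymes demethylate pectin, and IRX proteins are needed for secondary walls of xylem.

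Signals are given as deposited, on a scale read as log2, and a change is the mean of both lines minus wild type on that scale. Column medians were 5.89 in line 41, 5.91 in line 45 and 5.96 in wild type, while the 99th percentile was 10.63 in line 41 and 10.54 in line 45, against 9.62 in wild type. Of the leaf mesophyll markers, 3 of 17 were named on the array (LHCB4.1, LHCB4.2 and RCA), with signals of 11.58 to 14.13 in the lines and 9.53 to 11.90 in wild type, and all 3 rose. Their mean signal was 13.46 in line 41 and 12.93 in line 45, against 10.87 in wild type. All 3 were at least 2-fold higher in both lines, as were 9.77% of all features past the dim filter. Trichome markers were represented by SIM and TRY, 2 of 15, and neither passed: SIM read 6.78 in line 41 and 6.96 in line 45, against 6.98 in wild type, and TRY read 6.34 in line 41 and 6.72 in line 45, against 6.03 in wild type. The guard cell list had 1 of 7 named (FMA, also called FAMA) and the root list 1 of 7 (PYK10, which rose by 0.88 on the log2 scale), while 0 of 8 xylem and vascular and 0 of 8 flower markers were named, so the xylem content of the samples could not be checked. In RNA of whole leaves, fewer cells of a type and less RNA per cell cannot be told apart, and the part of the mesophyll and root marker changes in the results below was not tested.

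Across the wall families few genes passed the test, and the 4 that did were EXPA4, EXPB3 and XTH32, which were higher in the lines, and TBL20, which was lower. The test was limma fitted on 16905 features with Benjamini-Hochberg adjustment, at an adjusted p under 0.05. It called 14.6% of all tested features higher and 7.27% lower, against 3 of the 40 tested members (7.5%) higher and 1 of 40 (2.5%) lower. The shares of the wall genes were thus no greater than the background. At an unadjusted p under 0.05, 5 members (12.5%) were higher and 9 (22.5%) lower. Of all tested features 19.8% were higher and 15.4% lower, 35.2% together against 35% of the members. The 5 higher members included CSLC5, which was dimmer in wild type than the level of the dim filter. Conversely, TBL19, TBL31, EXPA18, EXPA24 and EXPB4 were brighter than that level in wild type. They fell under the filter through their lower signal in the lines, so they could not be called lower. The same filter was applied to all features. By position alone, 44 of the 67 genes (65.7%) lay below wild type in both lines and 14 (20.9%) lay above it in both, where 48.8% of all features lay below in both lines and 32.3% above. The median change of the 67 genes was -0.22, against -0.074 over all features with 1 feature per gene. Over the 16918 named genes alone the median was -0.098, with 51.9% below wild type in both lines and 28.8% above. Of the 9738 named genes tested, limma called 1082 higher and 775 lower, and 3168 had an unadjusted p under 0.05 in either direction. The excess of slightly lower wall genes was described and not tested, since the members share a wild-type array.

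**Figure D1:**
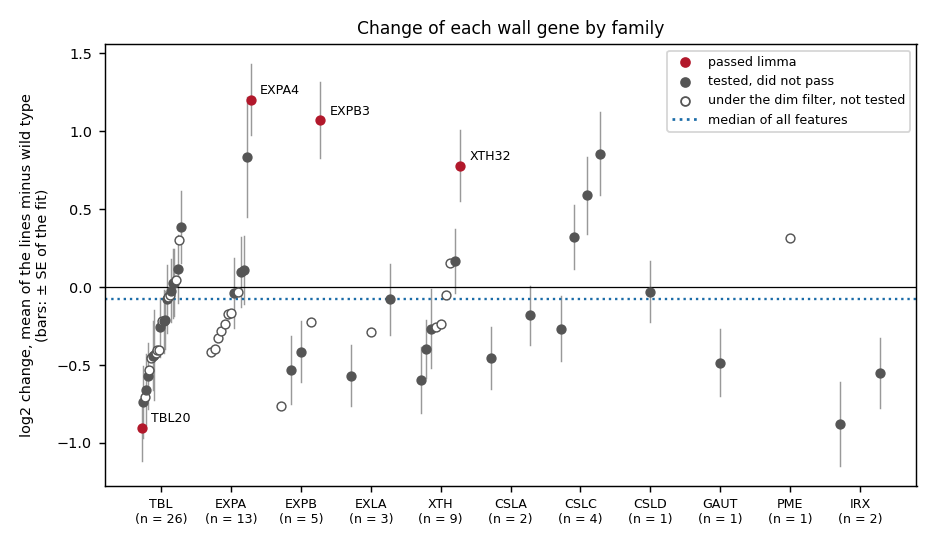
Change of each of the 67 wall genes, by family, as the log2 mean of line 41 and line 45 minus wild type (vertical axis). Red points passed limma, grey points were tested and did not pass, open points lay under the dim filter, bars are the SE of the fit, and the dotted line is the median of all features (-0.074). EXPA4, EXPB3 and XTH32 stand highest among the genes that passed, TBL20 lowest, and most TBL points lie below 0.

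In the TBL family, 18 of 26 genes (69.2%) lay below wild type in both lines, 3 lay above it in both and 5 had the lines on opposite sides. Of the other wall members 63.4% lay below in both lines, and of all features 48.8%. The family median was -0.24, with -0.24 in line 41 and -0.24 in line 45. Of the 15 TBL genes tested, 1 fell (TBL20) and 0 rose by limma. At an unadjusted p under 0.05, 4 of the 15 (26.7%) were lower and 0 higher, against 15.4% and 19.8% of all tested features. Both directions together gave 26.7% of the TBL genes tested, against 35.2% of all tested features. The roles below group genes by what is known of them, and the grouping was made after the values were seen.

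TBL20 (AT3G02440), in the clade of the xyloglucan acetyltransferase AXY4, was the TBL gene that passed. It had a signal of 6.35 in line 41 and 6.41 in line 45, against 7.29 in wild type, so both lines lay below wild type and close to each other. The gene fell 1.87-fold (log2 change -0.90 ± 0.21 SE, 95% interval -1.39 to -0.41, adjusted p = 0.0199 by limma, n = 2 transgenic arrays and 1 wild-type array). TBL20 also passed under each of the other scalings, with adjusted p from 0.0058 to 0.0123, and did not pass without the dim filter (0.131).

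Its clade mates differed among themselves. TBL19 (AT5G15900) stood at 5.03 in line 41 and 5.14 in line 45, against 5.79 in wild type, which are 0.76 and 0.65 below it, too dim on average to be tested. TBL21 (AT5G15890) stood at 6.62 in line 41 and 6.84 in line 45, against 6.70 in wild type, with a change of 0.024 (adjusted p = 0.955). These genes are direct neighbours in the annotation, and the TBL21 lines lay on either side of wild type while the TBL19 lines both lay below it.

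The TBL genes known from acetylation of xylan, the main hemicellulose of secondary walls, lay below wild type in both lines in 7 of 7 cases. Of all features 48.8% did so, of features under the dim filter 55.3%, and of the whole TBL family 69.2%. Changes of the 7 xylan genes ran from -0.66 to -0.22 with a median of -0.42, and 3 of the 7 were tested, of which 0 passed limma. At an unadjusted p under 0.05 there were 2, TBL33 and TBL35, a level that 15.4% of all tested features reached on the lower side. TBL33 (AT2G40320) had 7.95 in line 41 and 8.06 in line 45, against 8.67 in wild type, a change of -0.66 ± 0.23 SE (adjusted p = 0.0771). TBL33 passed after quantile normalization, with a change of -1.05 and an adjusted p of 0.0058, and in no other alternative.

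TBL35 (AT5G01620) was measured by 2 features, and both placed the lines below wild type. The brighter read 6.13 in line 41 and 6.29 in line 45, against 6.78 in wild type (change -0.57 ± 0.21 SE, adjusted p = 0.0943), and the dimmer read 4.88 in line 41 and 4.73 in line 45, against 5.47 in wild type. TBL28 (AT2G40150) read 6.19 in line 41 and 6.23 in line 45, against 6.43 in wild type (change -0.22, 95% interval -0.69 to 0.25, adjusted p = 0.498). Its direct neighbour TBL30 (AT2G40160) read 4.87 in both lines, against 5.27 in wild type, and was not tested. The remaining xylan genes were under the filter as well, so their values carry no test. TBL31 read 5.41 in line 41 and 5.35 in line 45, against 5.80 in wild type. TBL32 read 5.19 in line 41 and 5.10 in line 45, against 5.55 in wild type. TBL34 read 4.39 in line 41 and 4.58 in line 45, against 5.02 in wild type, and both line values lie under the floor of 4.68 used in the fit.

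The genes known from acetylation of mannan did not share a side. TBL25 (AT1G01430) read 6.83 in line 41 and 6.93 in line 45, against 6.85 in wild type, with a change of 0.028 (adjusted p = 0.945). TBL26 read 4.55 in line 41 and 4.91 in line 45, against 5.19 in wild type, while TBL24 read 5.28 in line 41 and 5.29 in line 45, against 4.99 in wild type. TBL23 read 4.74 in line 41 and 4.79 in line 45, against 4.82 in wild type. Of these, TBL25 was tested and the others lay under the dim filter.

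TBR (AT5G06700), which is needed for cellulose in trichome and stem walls, had 7.28 in line 41 and 7.12 in line 45, against 7.64 in wild type. Both lines lay below wild type, and the change of -0.44 had a 95% interval of -0.96 to 0.076, so it did not pass. TBL38 (AT1G29050), known as a pectin acetylesterase of the seed coat, read 7.46 in line 41 and 7.37 in line 45, against 7.49 in wild type (change -0.076, 95% interval -0.59 to 0.43).

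For the 10 TBL genes without a role given here, changes ran from -0.74 to 0.39. TBL16 (AT5G20680) had 7.12 in line 41 and 7.34 in line 45, against 7.97 in wild type, a change of -0.74 ± 0.23 SE that narrowly missed the threshold (adjusted p = 0.0557). It passed in 4 alternatives: quantile normalization (-0.95, adjusted p = 0.0098), centring on the 75th percentile (-0.80, adjusted p = 0.0346), the stricter dim filter (adjusted p = 0.0404) and the fit without a variance trend (adjusted p = 0.0493). TBL45 (AT2G30010) had the highest change of the TBL genes, with 7.26 in line 41 and 6.96 in line 45, against 6.72 in wild type (change 0.39, 95% interval -0.15 to 0.93, adjusted p = 0.284). The lines differed most in TBL41 (AT3G14850), which read 7.70 in line 41 and 8.28 in line 45, against 8.43 in wild type (change -0.44 ± 0.29 SE, adjusted p = 0.329).

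Smaller differences were found in the rest of the family. TBL18 and TBL36 lay below wild type in both lines, by 0.24 and 0.23 in line 41 and by 0.19 and 0.29 in line 45 (adjusted p = 0.469 and 0.385). TBL39 and TBL43 had line 41 at 0.046 and 0.11 below wild type and line 45 at 0.28 and 0.068 above it. None of these 4 genes passed limma. TBL15 read 4.75 in line 41 and 4.51 in line 45, against 4.85 in wild type. TBL37 read 5.29 in line 41 and 5.33 in line 45, against 5.26 in wild type. TBL42 read 5.35 in line 41 and 5.71 in line 45, against 5.59 in wild type, and like TBL15 and TBL37 it lay under the dim filter.

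**Figure D2:**
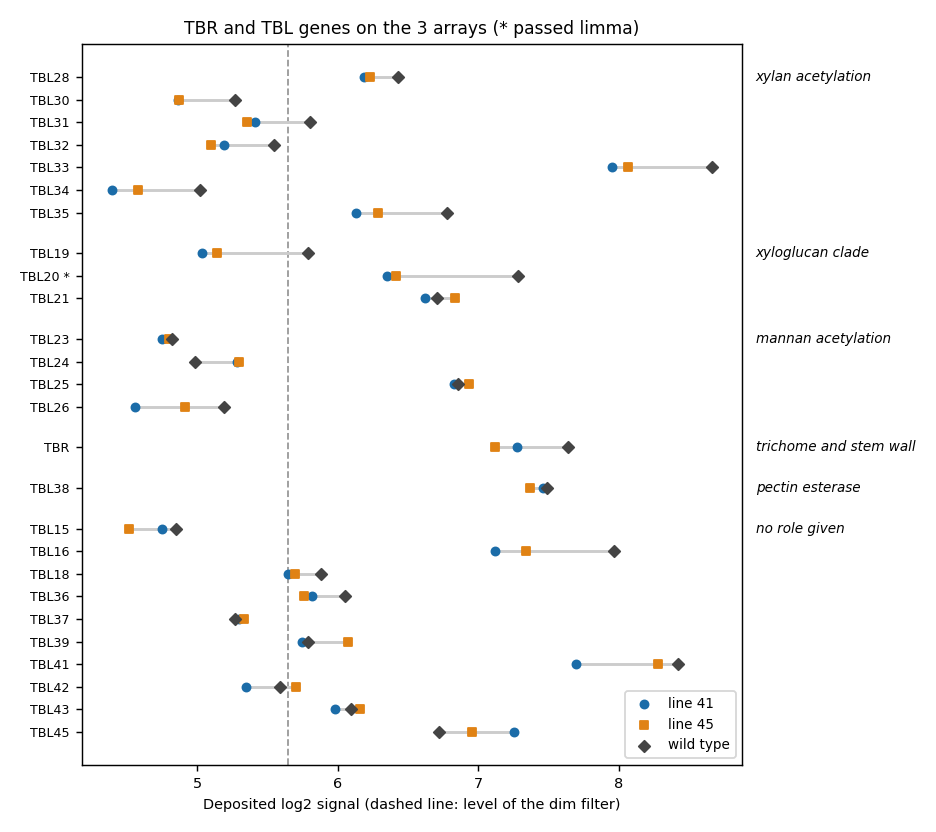
Deposited log2 signal (horizontal axis) of TBR and the 25 TBL genes in line 41 (circles), line 45 (squares) and wild type (diamonds), grouped by known role, with the brighter feature shown for TBL35. The dashed line is the dim filter at 5.64 and an asterisk marks TBL20, which passed limma. In the xylan group, formed after the values were seen, both line markers lie left of the wild-type diamond in 7 of 7 genes. Of all features 48.8% lie below wild type in both lines.

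Among the expansins, EXPA4 and EXPB3 rose and 0 of 10 tested fell by limma, where 14.6% of all tested features were called higher and 7.27% lower. EXPB1 and EXLA3, 2 of the 10, were lower at an unadjusted p under 0.05, as were 15.4% of all tested features. EXPA4 (AT2G39700), an alpha-expansin, had 7.77 in line 41 and 7.98 in line 45, against 6.67 in wild type. It was the sole wall gene at least 2-fold higher in both lines, a size that 9.77% of tested features reached, and 0 wall genes were at least 2-fold lower in both, against 1.44% of features. The rise was 2.30-fold (log2 change 1.202 ± 0.23 SE, 95% interval 0.67 to 1.73, adjusted p = 0.0086 by limma). EXPB3 (AT4G28250), a beta-expansin, had 8.49 in line 41 and 8.81 in line 45, against 7.58 in wild type. It rose 2.103-fold (log2 change 1.07 ± 0.25 SE, 95% interval 0.50 to 1.64, adjusted p = 0.0185). Both passed in each of the 7 alternatives except the fit without the dim filter, where their adjusted p were 0.123 and 0.151.

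Other alpha-expansins with a clear signal did not pass. EXPA8 (AT2G40610) had 8.96 in line 41 and 7.95 in line 45, against 7.62 in wild type, so line 41 stood well above both other arrays. Its change of 0.84 had a 95% interval of -0.058 to 1.73 (adjusted p = 0.166). EXPA15, EXPA16 and EXPA20 lay within 0.17 of wild type in each line, with changes of 0.097, 0.11 and -0.036 (adjusted p from 0.776 to 0.931 by limma). The change of EXPA15 turned to -0.28 after quantile normalization (adjusted p = 0.354).

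The 8 EXPA genes under the dim filter lay below wild type in both lines in 7 cases, where 55.3% of all features under the filter did so. EXPA7 and EXPA18, known from root hairs, read 4.96 and 5.20 in line 41 and 5.12 and 5.40 in line 45, against 5.37 and 5.72 in wild type. EXPA21 to EXPA25, which lie close together in the annotation with 1 other coding gene between EXPA23 and EXPA25, had changes from -0.40 to -0.16. They read 4.84 to 5.34 in line 41 and 4.80 to 5.61 in line 45, against 5.13 to 5.67 in wild type. Close copies of this kind can share signal on an array, so these genes may not be separate measurements. EXPA9 read 5.50 in line 41 and 5.70 in line 45, against 5.63 in wild type.

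Beta-expansins other than EXPB3 lay below wild type in both lines in 4 of 4 cases, where 48.8% of all features did so. EXPB1 (AT2G20750) had 7.001 in line 41 and 6.92 in line 45, against 7.49 in wild type (change -0.53, 95% interval -1.03 to -0.030, adjusted p = 0.123). It passed after quantile normalization alone among the alternatives (-0.67, adjusted p = 0.0377). EXPB5 read 5.94 in line 41 and 5.86 in line 45, against 6.32 in wild type (adjusted p = 0.178). EXPB4, under the filter, read 5.07 in line 41 and 5.48 in line 45, against 6.04 in wild type, and EXPB2 read 4.96 in line 41 and 5.04 in line 45, against 5.22 in wild type.

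The expansin-like genes EXLA1, EXLA2 and EXLA3 all lay below wild type in both lines, as did 48.8% of all features. Of EXLA2 and EXLA3, the 2 tested, neither passed. EXLA3 (AT3G45960) read 5.68 in line 41 and 5.80 in line 45, against 6.31 in wild type (change -0.57 ± 0.20 SE, adjusted p = 0.0768), and passed after centring on the 75th percentile (adjusted p = 0.0466). Its neighbour EXLA1 read 5.16 in line 41 and 5.25 in line 45, against 5.50 in wild type, under the filter. EXLA2, a bright feature, read 8.90 in line 41 and 8.98 in line 45, against 9.02 in wild type; its change was -0.079 (adjusted p = 0.847) as deposited and -0.66 (adjusted p = 0.0440) after quantile normalization.

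XTH32 was the XTH gene that passed, out of 5 tested. XTH32 (AT2G36870) had 9.29 in line 41 and 9.22 in line 45, against 8.48 in wild type. It rose 1.72-fold (log2 change 0.78 ± 0.23 SE, 95% interval 0.25 to 1.31, adjusted p = 0.0464 by limma). The call ended after quantile normalization, where the change was 0.34 (adjusted p = 0.263), after centring on the 75th percentile (0.72, adjusted p = 0.0540) and without the dim filter (adjusted p = 0.132).

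XTH21 (AT2G18800) showed the lowest change of the XTH genes, with 6.05 in line 41 and 6.25 in line 45, against 6.74 in wild type (change -0.59, 95% interval -1.09 to -0.10, adjusted p = 0.0862). XTH20 read 5.66 in line 41 and 5.69 in line 45, against 6.07 in wild type (adjusted p = 0.176). XTH33, an XTH anchored to the plasma membrane, read 5.87 in line 41 and 6.38 in line 45, against 6.39 in wild type (adjusted p = 0.514). In XTH33 line 45 matched wild type to within 0.011, while line 41 lay 0.52 below. XTH18 read 5.57 in line 41 and 5.86 in line 45, against 5.55 in wild type (change 0.17, adjusted p = 0.617). It passed the filter through line 45 alone, the sole array above the filter's level for this gene. Its neighbour XTH19 read 4.96 in line 41 and 4.85 in line 45, against 5.14 in wild type. Under the filter with XTH19 were XTH16, XTH26 and XTH29. XTH16 read 5.45 in line 41 and 5.05 in line 45, against 5.10 in wild type, while XTH26 and XTH29 lay below wild type by 0.32 and 0.081 in line 41 and by 0.19 and 0.018 in line 45.

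Genes of the CSLC family, whose enzymes make the glucan backbone of xyloglucan, lay above wild type in both lines in 3 of 4 cases. Of all features 32.3% did so, and 0 of the 4 genes passed limma. ATCSLC08, a gene of this family outside the naming rule, lay below wild type in both lines. Its differences were -0.53 in line 41 and -0.50 in line 45, and it did not pass (adjusted p = 0.0954 by limma). CSLC5 and CSLC04 were higher at an unadjusted p under 0.05, as were 19.8% of all tested features. CSLC5 and CSLC6 were dimmer than the filter's level of 5.64 in wild type and passed it through their signal in the lines. Their place among the tested genes thus depended on being higher there, so counts of tested genes that include them do not support a rise. CSLC5 (AT4G31590) had 6.68 in line 41 and 6.10 in line 45, against 5.54 in wild type, a change of 0.86 ± 0.27 SE (95% interval 0.24 to 1.48, adjusted p = 0.0567). It passed after quantile normalization (0.92, adjusted p = 0.0200) and after median centring (0.92, adjusted p = 0.0134). CSLC04 (AT3G28180), the main xyloglucan glucan synthase, had 7.13 in line 41 and 6.71 in line 45, against 6.33 in wild type (change 0.59, 95% interval 0.019 to 1.16, adjusted p = 0.131). CSLC6 read 5.94 in line 41 and 5.65 in line 45, against 5.47 in wild type (adjusted p = 0.312). CSLC12 (AT4G07960) went to the other side, with 6.34 in line 41 and 6.45 in line 45, against 6.66 in wild type (change -0.27, adjusted p = 0.410).

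The CSLA genes, of the mannan synthase family, lay below wild type in both lines. CSLA01 (AT4G16590) read 6.11 in line 41 and 6.10 in line 45, against 6.56 in wild type (change -0.46, 95% interval -0.92 to 0.011, adjusted p = 0.151). CSLA03 (AT1G23480) read 5.80 in line 41 and 5.74 in line 45, against 5.95 in wild type (adjusted p = 0.555). A second, dimmer feature of CSLA03 disagreed, reading 5.37 in line 41 and 5.04 in line 45, against 4.97 in wild type, so the direction of this gene was not settled. CSLD2, known from root hair growth, read 5.996 in line 41 and 5.89 in line 45, against 5.97 in wild type (adjusted p = 0.937).

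IRX15 and IRX15-L, close relatives needed for normal xylan in secondary walls, both lay below wild type in both lines, and neither passed with the values as deposited. Both were under 0.05 unadjusted and lower, as were 15.4% of all tested features. IRX15-L (AT5G67210) had 7.66 in line 41 and 7.17 in line 45, against 8.29 in wild type. Its change was -0.88 ± 0.27 SE (95% interval -1.50 to -0.26, adjusted p = 0.0527). IRX15-L passed under each of the other scalings (adjusted p = 0.0068 to 0.0320), with the stricter dim filter (0.0313) and without a variance trend (0.0485). IRX15 (AT3G50220) had 6.33 in line 41 and 6.61 in line 45, against 7.03 in wild type (change -0.55 ± 0.23 SE, adjusted p = 0.126). IRX15-L lay below IRX15 in change in line 45 (-1.12 and -0.41), while in line 41 they were close (-0.63 and -0.69).

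Pectin genes were few. GAUT15 (AT3G58790) read 5.93 in line 41 and 5.60 in line 45, against 6.25 in wild type (change -0.48, 95% interval -0.99 to 0.021, adjusted p = 0.157). PME61 (AT3G59010) read 5.88 in line 41 and 5.58 in line 45, against 5.42 in wild type, and lay just under the dim filter.

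**Figure D3:**
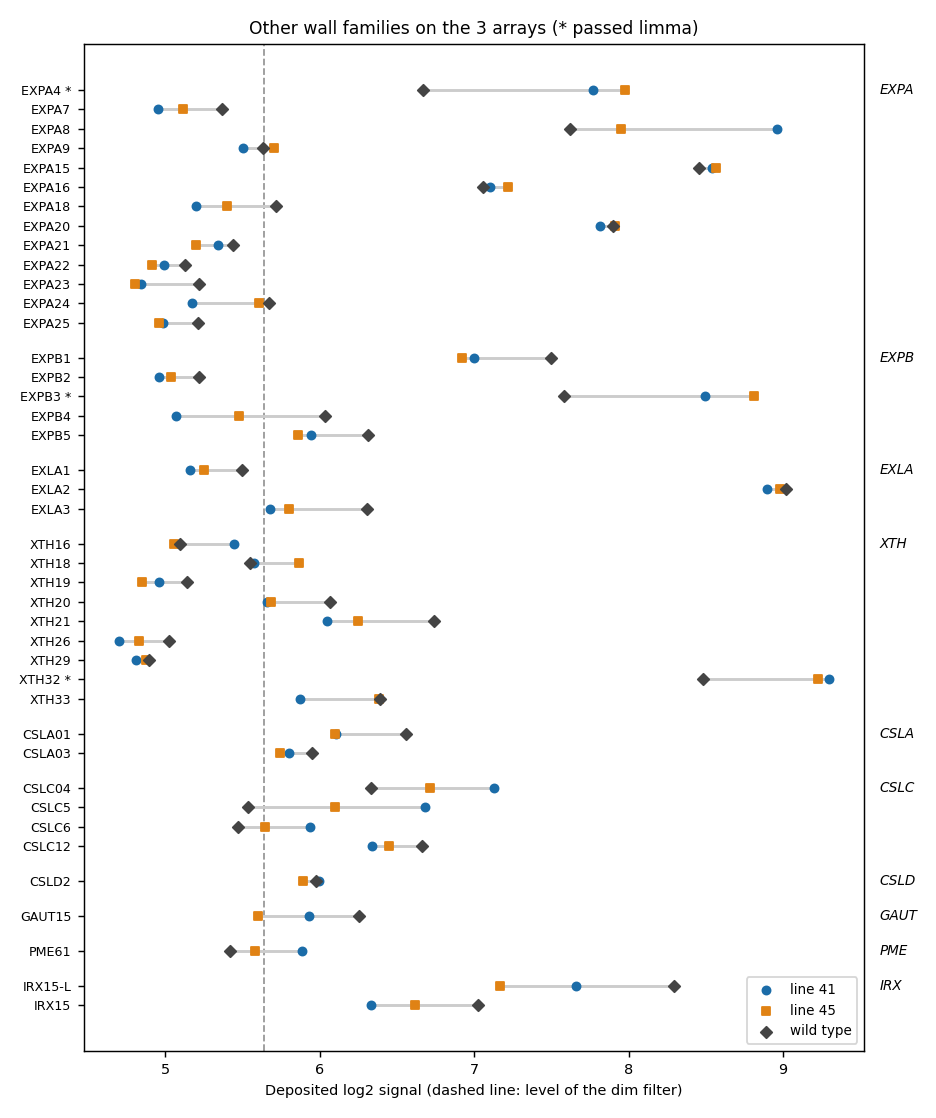
Deposited log2 signal (horizontal axis) of the 41 members outside the TBL family in line 41 (circles), line 45 (squares) and wild type (diamonds), grouped by family, with the brighter feature shown for CSLA03. The dashed line is the dim filter at 5.64 and asterisks mark EXPA4, EXPB3 and XTH32, which passed limma. The wild-type diamond lies left of both line markers in 11 of the 41 genes, EXPA4, EXPB3 and XTH32 among them. It lies right of both in 26. Of all features 32.3% lie above wild type in both lines and 48.8% below.

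The lines resembled each other closely in these families, with a median distance between them of 0.12 over the 67 genes, against 0.16 over all features. EXPA8 was the sole member at least 2-fold apart, 1.01 higher in line 41, where 0.491% of tested features were that far apart. TBL41 (-0.58, line 41 minus line 45) and CSLC5 (0.58) came next. No test between the lines was possible with 1 array each.

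How the arrays were scaled changed which genes passed. After quantile normalization 3 members were called higher (CSLC5, EXPA4 and EXPB3) and 6 lower (EXLA2, EXPB1, IRX15-L, TBL16, TBL20 and TBL33), where 15.4% of all features were higher and 15.7% lower. CSLC5, as deposited, was dimmer in wild type than the level of the dim filter. EXPA4, EXPB3 and TBL20 were called under each of the 4 scalings. Relative to the median of all tested features, which lay between -0.10 and 0.022 over these scalings, their directions were the same.

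**Figure D4:**
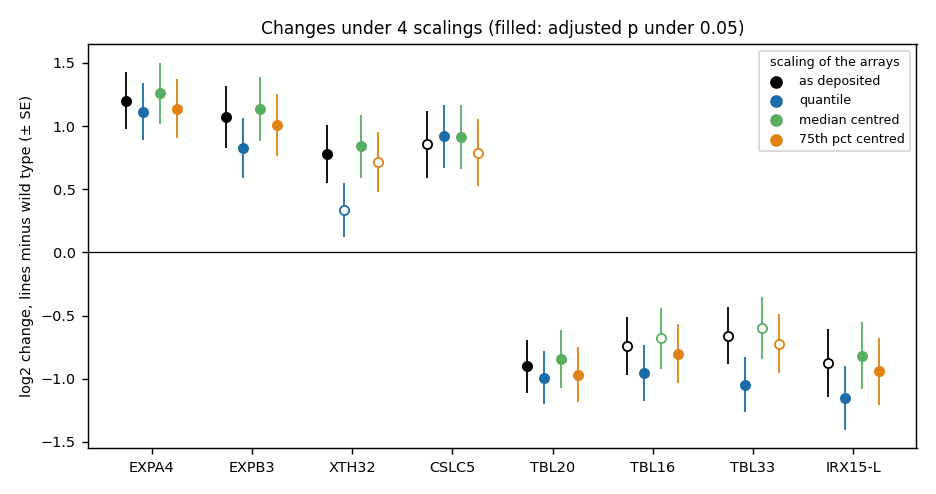
Log2 change, lines minus wild type, of 8 wall genes (vertical axis, bars ± SE) with values as deposited, after quantile normalization, after median centring and after centring on the 75th percentile. Filled points have an adjusted p under 0.05 by limma and open points do not. EXPA4, EXPB3 and TBL20 are filled in all 4 scalings, XTH32 in 2 and IRX15-L in 3.

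Further wall genes came from lists of acetylation, xylan and sugar nucleotide, xyloglucan, cellulose, pectin, wall protein and secondary wall regulator genes, with 135 names in all. Of these names 1 was matched to a feature, COB (AT5G60920), which encodes a GPI-anchored protein that orients cellulose deposition. COB had 9.16 in line 41 and 9.58 in line 45, against 8.50 in wild type, and its change of 0.86 did not pass (adjusted p = 0.0527 by limma). A few genes carry a family name as a synonym in RefSeq and so fall outside the naming rule. EXGT-A3, with the synonym ATXTH27, had 8.98 in line 41 and 9.03 in line 45, against 8.02 in wild type, and rose by a log2 change of 0.99 (adjusted p = 0.0190). GUT2, with the synonym IRX10, a xylan synthase gene, had 6.24 in line 41 and 6.75 in line 45, against 5.99 in wild type (change 0.50, adjusted p = 0.209). ATCSLC08 had 5.72 in line 41 and 5.74 in line 45, against 6.25 in wild type (change -0.52, adjusted p = 0.0954). In the dim range, AT2G31110, with the synonym TBL40, read 5.27 in line 41 and 5.49 in line 45, against 5.41 in wild type. AT4G02300, with the synonym PME39, read 5.39 in line 41 and 5.54 in line 45, against 5.41 in wild type, and ATPMEPCRB, with the synonym PME41, read 5.39 in line 41 and 5.63 in line 45, against 5.87 in wild type.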

How the data were processed

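The deposited table holds 1 log2 value per feature and array; the authors' scaling, platform software and background correction are not given in the sources used. The values lie between 4.04 and 14.8 with no negative value, so log2 is read from the range. Columns were kept as deposited. Features were named through the array annotation (17579 features by 1 gene, 11206 unnamed here) and RefSeq TAIR10.1, which held 17491 of them; no coordinates were used. The brightest feature stood for a gene.

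Values were raised to a floor of 4.68 (the 5th percentile), and features with a mean at or above 5.64 (the 40th percentile) were tested: 16905, by limma 3.58.1 in R 4.3.3 (lmFit, eBayes with trend, two-sided, Benjamini-Hochberg). The fit has 1 residual and 6.76 prior degrees of freedom. Simulated data had 200 of 16905 features changed. There, 59% of changes of 1 on the log2 scale were recovered (9 false calls) and 100% of changes of 2 (10 false calls). The real comparison called 2468 features higher and 1229 lower, far more than were changed in the simulation. The simulated recovery and false calls therefore do not give those of the real comparison. The number of arrays limits the precision. At most 24 features had equal values in a pair of arrays.

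Genes named were every TBL gene and TBR, members that passed or were at least 2-fold from wild type in both lines, the greatest change each way in families with 3 or more tested members, and the 3 members furthest apart between the lines; other members named were chosen after their values were seen. The members and lists were chosen with earlier results of these data known. The arrays were also scaled by quantiles, the median or the 75th percentile, and other alternatives were no dim filter or the 60th percentile, no floor, no variance trend, and leaving out each line.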

Additional observations from a re-analysis of the deposited data

How the results depend on the processing

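Of the 40 tested members, 1 (2.5%) was called lower as deposited, against 7.27% of all features. After quantile normalization 6 (15%) were lower, against 15.7% of all features, after median centring 2 (5%, against 7.69%), after centring on the 75th percentile 4 (10%, against 10.2%), with the stricter dim filter 3 of 25 (12%, against 8.33%) and without a variance trend 3 (7.5%, against 7.06%). The members called higher were 3 (7.5%) as deposited, against 14.6% of all features. They were 4 (10%, against 17.7%) after median centring and 2 (5%, against 14.2%) after centring on the 75th percentile. Under the remaining alternatives with a dim filter 3 were called higher. These were 7.5% after quantile normalization (against 15.4%) and 3 of 25 (12%, against 21.0%) with the stricter filter. Without a floor, and without a variance trend, they were 7.5% (against 14.6%). CSLC5, which as deposited was dimmer in wild type than the filter's level, was called after quantile normalization and after median centring. Without the dim filter limma called 0 higher and 0 lower of 67, and 0 of all 28124 features. At an unadjusted p under 0.05 there were then 4 members higher (5.97%) and 12 lower (17.9%), against 10.8% and 14.7% of all features. Both directions together gave 23.9% of the members, against 25.5% of all features. In the TBL family 1 of 15 (6.67%) was lower as deposited, against 7.27% of all features. There were 3 (20%, against 15.7%) after quantile normalization and 2 (13.3%, against 10.2%) after centring on the 75th percentile. With the stricter filter 2 of 11 (18.2%, against 8.33%) were lower, and without a variance trend 2 (13.3%, against 7.06%). Without the dim filter 0 of 26 were lower. At an unadjusted p under 0.05, 8 TBL genes (30.8%) were then lower and 1 (3.85%, TBL24) higher, against 14.7% and 10.8% of all features.

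The median of the tested members, -0.20 as deposited, was -0.24 after quantile normalization, -0.14 after median centring, -0.26 after centring on the 75th percentile and -0.079 with the stricter filter. It was -0.19 to -0.13 with each line left out, a value with no test. The TBL median, -0.22, was -0.16 after median centring, -0.28 after centring on the 75th percentile and -0.44 with the stricter filter.

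Among the tested members, these changes switched sides. EXPA15 (0.097) was -0.28 after quantile normalization. TBL21 (0.024) was -0.0069 after quantile normalization and -0.040 after centring on the 75th percentile, and TBL25 (0.028) was -0.034 and -0.036. TBL43 (-0.022) was 0.024 after quantile normalization and 0.038 after median centring, CSLD2 (-0.029) was 0.026 and 0.031, and EXPA20 (-0.036) was 0.024 after median centring. With a line left out, TBL21 ranged from -0.083 to 0.13, TBL25 from -0.025 to 0.081, TBL39 from -0.046 to 0.28, TBL43 from -0.11 to 0.068, CSLD2 from -0.081 to 0.023 and EXPA20 from -0.086 to 0.014. The cause of these shifts was not tested. Removing the floor moved no call among the members. No paired analysis was possible because the labels number the lines only.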
